A study of Xenopus tropicalis with 18 samples.

Results

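The genes *hgf*, *igf3*, *pdgfa*, *amh* and *kit* are 4 secreted growth factors and 1 growth factor receptor, and they were followed through whole-embryo RNA-seq of *Xenopus tropicalis* in which the maternal transcription factors Foxi2 and Sox3 were knocked down. They are 5 of the 28850 genes in the count tables, and they were picked by name because earlier results from these data had shown them to respond to the knockdowns. Their differences between morphants and controls are therefore given as a description, without a test. The same control libraries stood behind that choice, so the levels of the 5 genes by stage in controls are a description as well.

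By the sample labels, embryos were injected at the 1-cell stage, in the animal hemisphere (the study's general methods also name the 2-cell stage), with a translation-blocking morpholino (MO) against *foxi2* or *sox3*, and poly(A) RNA was sequenced at late blastula (stage 9) or early gastrula (stage 10.5). Each factor had control embryos of its own, which the sample titles call controls and the study describes as wild type, although the treatment label names a morpholino for every sample. Foxi2 at stage 9 had 3 morphant and 3 control libraries, and Foxi2 at stage 10.5, Sox3 at stage 9 and Sox3 at stage 10.5 had 2 and 2 each, which gave 18 libraries in 9 pairs of the same factor, stage and replicate number. The labels do not say whether replicates came from separate clutches, so the p-values measure the spread between these libraries only, and a morpholino reaches the descendants of the injected region rather than a single tissue.

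All 5 genes act in signalling between cells. Hgf binds the receptor tyrosine kinase Met and makes epithelial cells scatter and migrate, Igf3 belongs to the insulin-like growth factors, which act mainly through the receptor Igf1r, and Pdgfa binds the receptor tyrosine kinase Pdgfra. In the *Xenopus* gastrula, Pdgfa from the ectodermal blastocoel roof guides the mesoderm cells that carry Pdgfra. Kit is the receptor tyrosine kinase for Kit ligand and is known from pigment cell, blood and germ cell precursors, and Amh, anti-Müllerian hormone, is a TGF-beta family hormone of the gonad that acts through Amhr2 and the Smad proteins of the BMP pathway.

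The library totals ran from 12740571 to 27866261 expected counts, where an expected count is the estimated number of reads from a gene, and levels are given as CPM, the counts of a gene scaled to a common library size with TMM factors. The tables carry no transcript lengths, so levels of different genes are not compared with each other. The MOs block translation, so the transcripts of their targets do not measure the knockdown. At stage 10.5 *foxi2* was at 282 and 399 CPM in Foxi2 morphants against 116 and 270 CPM in controls, by lowest and highest library, and *sox3* was at 1262 and 1731 CPM in Sox3 morphants against 480 and 667 CPM. Ectoderm, mesoderm and endoderm marker genes were all detected, and their sums are given beside the results.

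Libraries with the same stage label in the Foxi2 series differed widely in how far they had moved toward gastrula expression. As a measure, the CPM of 323 genes that were at least 8-fold higher and called in stage 10.5 against stage 9 controls of the Sox3 series were summed, leaving out the 5 genes and both MO targets, so the Sox3 controls chose this list and the Foxi2 libraries did not. In the stage 9 libraries of the Foxi2 series, these genes summed to 228 and 244 CPM in the morphant and control of replicate 1, 3361 and 2137 CPM in replicate 2, and 13225 and 12879 CPM in replicate 3. At stage 10.5, replicate 2 held 12353 and 10523 CPM and replicate 1 held 21639 and 22876 CPM. Replicate 3, labelled late blastula, was thus above both libraries of replicate 2 labelled early gastrula. The morphant and control of a number were nearer to each other than the numbers of a stage were. In replicate 2 of stage 9 they still differed, with 3361 CPM in the morphant and 2137 CPM in the control. The Sox3 series was more even, with 666 to 1035 CPM over its 4 stage 9 libraries and 14301 to 15901 CPM over those of stage 10.5. Since its controls chose the genes, this evenness follows in part from the choice. At stage 9 its morphants held 741 and 666 CPM and its controls 1035 and 983 CPM, without overlap. At stage 10.5 the morphants held 14301 and 14501 CPM and the controls 15901 and 14966 CPM. The choice of the list favours high sums in these controls. Genes that respond to a knockdown also stayed in the list, *kitlg* (below) among them. Sums of morphants and controls therefore do not compare stage alone. Which embryos or times lie behind the spread was not tested, and the Foxi2 results below are given by pair and, where they rest on replicate 3, with and without it.

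**Figure D1:**
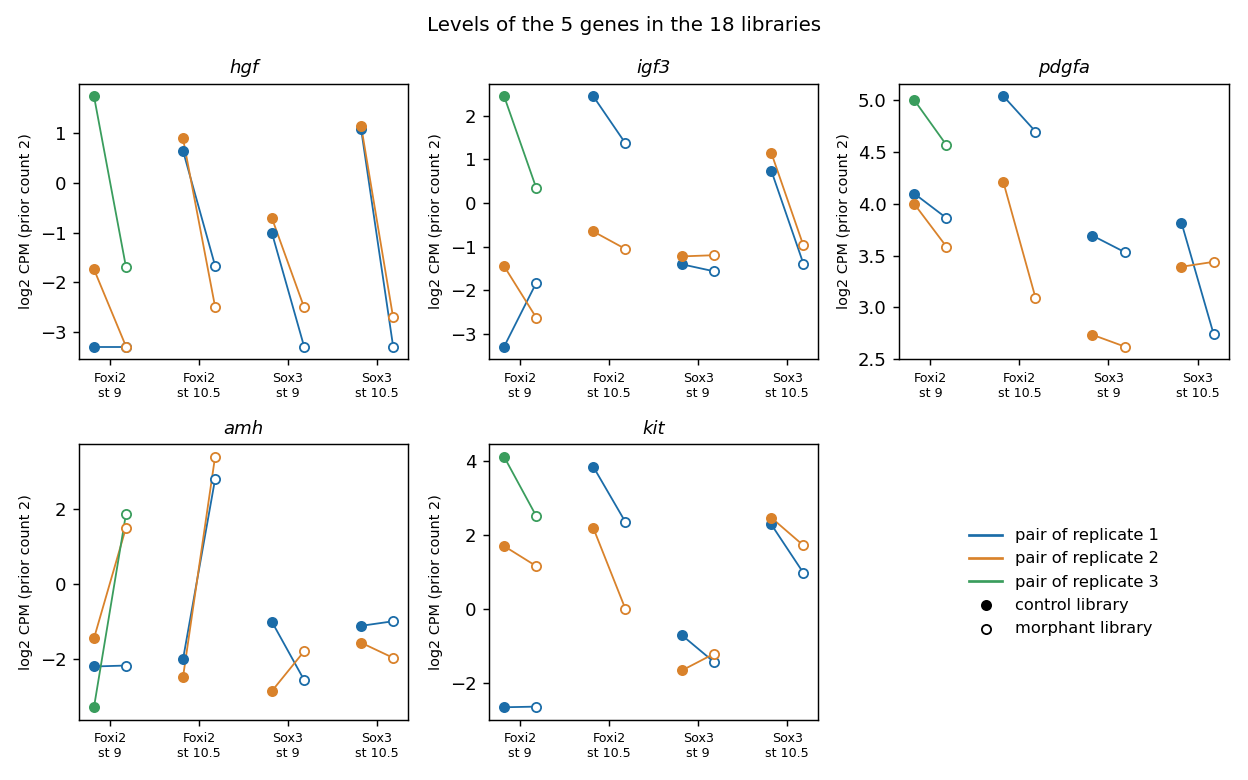
Level of each gene, as log2 CPM with a prior count of 2, in every library (filled points: controls; open points: morphants), with a line joining the morphant and control of the same replicate number within each factor and stage. The *hgf* lines slope down in all pairs but replicate 1 of the Foxi2 series at stage 9, where both libraries had 0 counts, and the *amh* lines rise steeply in 4 of the 5 Foxi2 pairs and not in the Sox3 pairs.

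In control embryos, *kit*, *igf3* and *hgf* were low at stage 9 and higher at stage 10.5 in the Sox3 series, and *pdgfa* was present at both stages. The Sox3 controls held 0.510 and 0.217 CPM of *kit* at stage 9, and 4.80 and 5.45 CPM at stage 10.5. For *igf3* the values were 0.275 and 0.326 CPM at stage 9 and 1.57 and 2.12 CPM at stage 10.5. The *hgf* level went from 0.392 and 0.507 CPM to 2.02 and 2.12 CPM, and for none of these 3 genes did the stages overlap in this series. Control embryos of the Sox3 series had 12.8 and 6.55 CPM of *pdgfa* at stage 9, and 14.0 and 10.4 CPM at stage 10.5, so the stages overlapped.

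In the Foxi2 series the control libraries of a stage were spread far apart, and at stage 9 *kit*, *igf3* and *hgf* had the same order of levels as the gastrula genes. The 3 stage 9 controls, in replicate order, held 0.0575, 3.16 and 17.2 CPM of *kit*, and those of stage 10.5 held 14.4 and 4.50 CPM, so replicate 3 of the earlier stage was the highest of all. For *igf3* they held 0, 0.263 and 5.34 CPM at stage 9 and 5.36 and 0.534 CPM at stage 10.5. The *hgf* values were 0, 0.198 and 3.25 CPM at stage 9 and 1.46 and 1.75 CPM at stage 10.5. Both stages overlapped for each gene, and the *pdgfa* levels of 17.0, 15.9 and 31.9 CPM at stage 9 and 32.8 and 18.4 CPM at stage 10.5 overlapped too. *amh* was near the limit of detection in all 9 controls, with 0 to 4 counts in the 5 Foxi2 controls and 10, 1, 8 and 5 counts in the Sox3 controls.

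The stage difference was fitted over all genes with edgeR's quasi-likelihood test on the 9 controls, with the series as a term and a call at a Benjamini-Hochberg adjusted p under 0.05 and a change of at least 2-fold. Of 14785 genes tested, 0 were called (0 percent), while 4669 had an unadjusted p under 0.05. DESeq2 called 1521, which is 11.2 percent of the 13614 genes it gave an adjusted p. The 4 of the 5 genes that passed the count filter differed by 1.95 (*kit*, SE 1.33), 1.53 (*igf3*, SE 1.297), 1.28 (*hgf*, SE 1.11) and 0.28 (*pdgfa*, SE 0.32) on the log2 scale, with the higher level at stage 10.5. Without stage 9 replicate 3 of the Foxi2 controls, 2283 genes were called, and the differences were 3.15 for *kit*, 3.42 for *igf3*, 2.93 for *hgf* and 0.48 for *pdgfa*.

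Fitted on their own, a choice made after the data had been seen, the Sox3 controls called 14.1 percent of 14067 genes, and 768 of them, 5.46 percent of those tested, were higher at stage 10.5. There the difference was 3.71 for *kit* (SE 0.59), 2.50 for *igf3* (SE 0.58), 2.09 for *hgf* (SE 0.53) and 0.23 for *pdgfa* (SE 0.41) on the log2 scale, and *amh* did not pass the filter. The stage 9 libraries held 6 to 13 counts of *kit* and *igf3*, which passed the filter through stage 10.5, where they were high. Fitted alone, the 5 Foxi2 controls called 0 of 13247 genes by edgeR (0 percent), with 579 at an unadjusted p under 0.05, and the 4 genes that passed differed by 0.25 to 0.68 on the log2 scale.

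**Figure D2:**
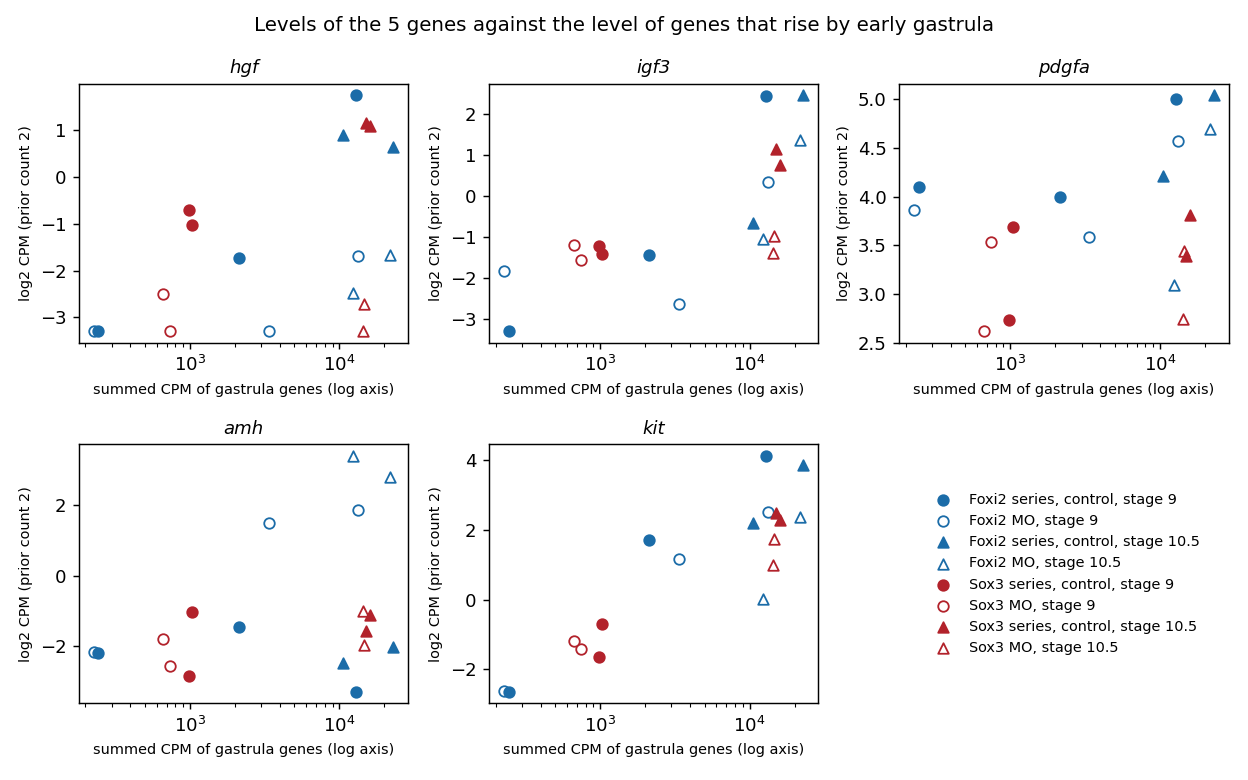
Level of each gene (log2 CPM, prior count 2) in each of the 18 libraries against the summed CPM of the 323 gastrula genes in the same library, on a log axis (circles: stage 9; triangles: stage 10.5; filled: controls; open: morphants; colour: series). Among controls, *kit*, *igf3* and *hgf* are lowest in the library with 244 CPM of gastrula genes, and the stage 9 control with 12879 CPM lies at the right with the stage 10.5 controls.

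*hgf* was lower in the morphants of both factors at both stages, in 7 of the 9 pairs, and the other 2 pairs had at most 3 counts in either library. At stage 10.5 the Sox3 controls had 45 and 45 counts (2.02 and 2.12 CPM) and the Sox3 morphants 0 and 1 count (0 and 0.0509 CPM), so that the control was at least 16.8-fold higher in replicate 1, computed against 3 counts in that library, and 41.6-fold higher in replicate 2 (95% counting interval 7.09 to 1677). The groups did not overlap, and none of the 9 morphant libraries of either factor and stage held more than 3 counts. Such intervals cover counting error only.

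The Foxi2 controls of stage 10.5 had 30 and 23 counts of *hgf* and the Foxi2 morphants 3 and 1, which is 6.85-fold (counting interval 2.13 to 35.1) and 23.1-fold (3.75 to 952) higher in the controls. These groups did not overlap either. At stage 9 the Sox3 controls had 10 and 14 counts and the morphants 0 and 2, with no overlap and with the control at least 3.90-fold higher in replicate 1. The Foxi2 pairs of stage 9 had 0, 0 and 3 counts in the morphants and 0, 3 and 42 in the controls, so a ratio could be formed in replicate 3 alone, at 15.8-fold (5.04 to 79.5). In whole embryos, fewer cells of a type and less RNA per cell cannot be told apart, which holds for every difference given here.

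The mean difference of *hgf* between morphant and control of a pair, in log2 CPM with a prior count of 2, was -4.12 ± 0.37 (SD, n = 2 pairs) for Sox3 at stage 10.5 and -2.85 ± 0.76 (SD, n = 2) for Foxi2. For stage 9 it was -2.03 ± 0.35 (SD, n = 2) for Sox3 and -1.67 ± 1.72 (SD, n = 3) for Foxi2. With values so near 0 these means depend on the prior count, and at 0.5 the Sox3 means were -5.57 at stage 10.5 and -3.22 at stage 9. Without replicate 3 the Foxi2 mean of stage 9 was -0.78, from pairs at 3 counts or fewer.

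*igf3* was lower in Sox3 morphants at stage 10.5, and in Foxi2 morphants by an amount that varied between pairs. The Sox3 controls of stage 10.5 had 1.57 and 2.12 CPM of *igf3* and the morphants 0.280 and 0.407 CPM, without overlap. Both pairs differed alike, 5.61-fold (counting interval 2.46 to 14.97) and 5.19-fold (2.42 to 12.8), and the mean was -2.13 ± 0.01 on the log2 scale (SD, n = 2 pairs). At stage 9 the same series had 7 and 9 counts in controls and 7 and 9 in morphants, so no difference was detectable at this depth, and the mean was -0.07 ± 0.13 (SD, n = 2).

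The Foxi2 controls of stage 10.5 held 5.36 and 0.534 CPM of *igf3* and the morphants 2.49 and 0.380 CPM, so the groups overlapped although each morphant was below its own control. The difference was 2.15-fold in replicate 1 (counting interval 1.46 to 3.25) and 1.41-fold in replicate 2 (0.384 to 5.62), where 5 and 7 counts do not show a difference. At stage 9 replicate 3, with the most gastrula expression, had 69 counts in the control and 17 in the morphant (4.57-fold, 2.66 to 8.29), and replicates 1 and 2 had at most 4 counts in any library. The mean over these 3 pairs was -0.61 ± 1.85 (SD), and without replicate 3 it was 0.14, which turns its sign.

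*pdgfa*, with 111 to 674 counts in every library, was lower in 8 of 9 pairs, by 1.08-fold to 2.18-fold. The Foxi2 controls of stage 9 held 17.0, 15.9 and 31.9 CPM and the morphants 14.4, 11.9 and 23.6 CPM, so the groups overlapped while each morphant was below its own control. The mean was -0.36 ± 0.11 on the log2 scale (SD, n = 3 pairs), or 1.18-fold to 1.35-fold, with a counting interval that includes 1 in replicate 1, and it was -0.32 without replicate 3. For Foxi2 at stage 10.5 the controls held 32.8 and 18.4 CPM and the morphants 25.9 and 8.43 CPM, 1.27-fold (counting interval 1.12 to 1.45) and 2.18-fold (1.73 to 2.76), and the counting intervals of the 2 pairs did not overlap.

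The Sox3 pairs disagreed on *pdgfa* at stage 10.5. Replicate 1 had 14.0 CPM in the control and 6.59 CPM in the morphant, a 2.12-fold difference (counting interval 1.75 to 2.58), and replicate 2 had 10.4 CPM in the control and 10.7 CPM in the morphant. The mean of -0.51 ± 0.79 (SD, n = 2 pairs) thus rests on replicate 1 and was 0.05 without it. Differences at stage 9 were 1.12-fold and 1.08-fold, each with a counting interval that includes 1.

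*amh* went the other way from the rest, and its rise was seen in the Foxi2 pairs. In Foxi2 morphants of stage 10.5 it had 96 and 137 counts (6.83 and 10.4 CPM), against 3 and 1 counts (0.146 and 0.0763 CPM) in controls. The morphants were 46.7-fold (counting interval 15.5 to 230) and 136-fold (24.1 to 5426) higher, and the groups did not overlap. At stage 9 replicates 2 and 3 had 46 and 52 counts in the morphants and 4 and 0 in the controls, which is 10.4-fold (3.80 to 39.8) and at least 15.4-fold higher, while replicate 1, the library pair with the least gastrula expression, had 2 counts in both.

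The mean *amh* difference was 5.34 ± 0.76 on the log2 scale (SD, n = 2 pairs) at stage 10.5 and 2.72 ± 2.58 (SD, n = 3) at stage 9, where it was 1.49 without replicate 3 and 4.06 without replicate 1. In Sox3 embryos *amh* stayed at 1 to 10 counts in all 8 libraries. The Sox3 morphants had 2 and 5 counts against 10 and 1 in controls at stage 9, and 10 and 3 against 8 and 5 at stage 10.5, and within each stage the groups overlapped. The means of -0.25 ± 1.84 and -0.14 ± 0.37 (SD, n = 2 pairs each) turned to 1.06 without replicate 1 at stage 9 and to 0.12 without replicate 2 at stage 10.5. The difference between the factors was not tested, since the genes were chosen for these values.

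*kit*, the receptor among the 5, was lower in the stage 10.5 morphants of both factors. The Foxi2 controls held 14.4 and 4.50 CPM (295 and 59 counts) and the Foxi2 morphants 5.05 and 0.911 CPM (71 and 12 counts), so each morphant was below its control while the higher morphant lay above the lower control. The differences were 2.85-fold (counting interval 2.19 to 3.74) and 4.94-fold (2.63 to 10.1), with a mean of -1.84 ± 0.49 on the log2 scale (SD, n = 2 pairs). The Sox3 controls held 4.80 and 5.45 CPM and the morphants 1.88 and 3.21 CPM, without overlap, at 2.55-fold (1.80 to 3.68) and 1.70-fold (1.24 to 2.35) and a mean of -1.03 ± 0.40 (SD, n = 2).

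At stage 9 the *kit* difference in the Foxi2 pairs was clear of counting error in replicate 3 alone. Replicate 1 had 1 count in each library, replicate 2 had 3.16 CPM in the control and 2.14 CPM in the morphant (1.47-fold, counting interval 0.938 to 2.34), and replicate 3 had 17.2 and 5.63 CPM (3.06-fold, 2.37 to 3.99). The mean of -0.71 ± 0.82 (SD, n = 3 pairs) was -0.26 without replicate 3. The Sox3 pairs of stage 9, with 6 to 13 counts a library, went in opposite directions.

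**Figure D3:**
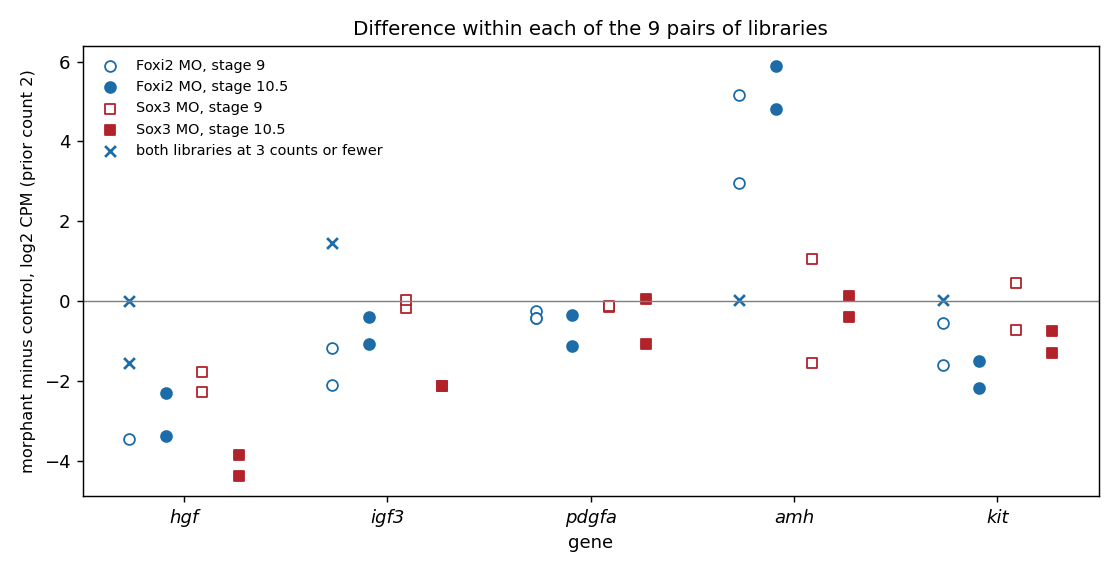
Morphant minus control in log2 CPM (prior count 2) for each gene in each of the 9 pairs, with circles for Foxi2 and squares for Sox3, open for stage 9 and filled for stage 10.5; crosses mark pairs in which both libraries had 3 counts or fewer. At stage 10.5 the points of *hgf*, *igf3* and *kit* lie below 0 for both factors, and those of *amh* lie at 4.80 and 5.88 for Foxi2 and at 0.12 and -0.40 for Sox3.

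In the edgeR fits over all genes, the numbers of the 5 that passed the count filter were 2 (*kit* and *pdgfa*) for Foxi2 at stage 9, all 5 for Foxi2 at stage 10.5, 2 (*hgf* and *pdgfa*) for Sox3 at stage 9 and 4 (all but *amh*) for Sox3 at stage 10.5. Without the replicate number in the fit, 0 genes were called in any of the 4 knockdown comparisons (0 percent of 12802, 13215, 13909 and 14427 genes), with 145, 277, 392 and 795 at an unadjusted p under 0.05. Also without that number, DESeq2 called 20, 30, 68 and 188 genes. These are 0.122, 0.234, 0.433 and 1.23 percent of the 16349, 12826, 15716 and 15258 genes it gave an adjusted p. With the replicate number as a block, the calls were 0.719, 1.47, 1.32 and 3.35 percent of genes. Of the 5 genes, 0 were called for Foxi2 at stage 9, 3 for Foxi2 at stage 10.5 (*hgf*, *kit* and *amh*), 0 for Sox3 at stage 9 and 2 for Sox3 at stage 10.5 (*hgf* and *igf3*). Because the genes were chosen for these very differences, the counts are no evidence about them. In comparisons with 2 libraries a group, the block leaves little to estimate a gene's own spread. Its p-values there, for any gene, lean mostly on the spread shared across genes.

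The receptors and ligands that pair with the 5 genes were measured in the same libraries, and they were listed because they pair with them, with earlier results of the data known. Kit ligand, *kitlg*, was at 8.43 and 6.31 CPM in Sox3 morphants of stage 10.5 and at 29.0 and 16.0 CPM in their controls, without overlap. With the replicate block it fell by 1.54 on the log2 scale (SE 0.21, edgeR adjusted p = 0.000539), whereas without the block the change was -1.58 (SE 0.38, edgeR adjusted p = 0.535), and DESeq2 gave -1.60 with an adjusted p of 0.0176. In the Sox3 embryos the receptor *kit* and its ligand were thus both lower than in controls at this stage. Both genes were also below the control in each Foxi2 pair of stage 10.5, where *kitlg* was not called.

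At stage 9 the Sox3 morphants held 0.940 and 0.445 CPM of *kitlg* and the controls 2.16 and 1.63 CPM, again without overlap (-1.47, SE 0.35, edgeR adjusted p = 0.0592 with the block). The Foxi2 morphants of stage 10.5 held 25.2 and 4.10 CPM and the controls 33.0 and 10.2 CPM (-0.69, SE 0.21, edgeR adjusted p = 0.107 with the block). At stage 9 they held 0.119, 1.91 and 16.5 CPM against 0.230, 1.84 and 26.8 CPM (-0.52, SE 0.21, edgeR adjusted p = 0.311 with the block). None of these passed the threshold. In the Sox3 controls fitted alone *kitlg* rose from stage 9 to stage 10.5 by 3.47 (SE 0.42, edgeR adjusted p = 0.0112).

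*pdgfra*, the receptor for Pdgfa, was higher in the Sox3 morphants of stage 10.5, at 143 and 137 CPM against 68.1 and 93.1 CPM in controls, without overlap. The change with the block was 0.85 on the log2 scale (SE 0.18, edgeR adjusted p = 0.0132), under the 2-fold size that a call needed. In Foxi2 embryos of stage 9 the morphants held 2.44, 35.2 and 145 CPM and the controls 2.82, 13.0 and 85.2 CPM. That gave 0.88 with the block (SE 0.21, edgeR adjusted p = 0.102), and 1.04 (edgeR adjusted p = 0.0145, a call) without the pair of replicate 1 and 0.95 (edgeR adjusted p = 0.408) without that of replicate 3, both alternatives chosen after seeing the data.

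For Foxi2 at stage 10.5, *pdgfra* was at 164 and 108 CPM in morphants and 156 and 78.0 CPM in controls (0.27, SE 0.10, edgeR adjusted p = 0.183 with the block), and for Sox3 at stage 9 it was at 18.3 and 7.12 CPM against 14.6 and 6.08 CPM (0.29, SE 0.13, edgeR adjusted p = 0.499 with the block). It rose by 2.87 from stage 9 to stage 10.5 in the Sox3 controls fitted alone (SE 0.47, edgeR adjusted p = 0.0197). The receptor is a mesoderm gene in the gastrula. The 7 mesoderm markers summed to 1084 and 1040 CPM in Sox3 morphants of stage 10.5 and 1027 and 980 CPM in controls. There 0 of them were at 0 counts and 0 were called, where 3.35 percent of all genes were called with the block. In the Foxi2 series of stage 9 the markers summed to 6.06, 438 and 916 CPM for morphant replicates 1 to 3. Their controls held 7.48, 238 and 794 CPM. For Foxi2 at stage 9 *gsc* was called higher with the block, the only one of the 7, beside 35 of 12802 genes called higher. In the Sox3 series of stage 9 the markers summed to 76.9 and 83.3 CPM in morphants and 151 and 115 CPM in controls, without overlap. There *tbxt* was called lower with the block, beside 140 of 13909 genes called lower. The markers' part in the *pdgfra* values was not tested.

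The receptors of the other 3 ligands were *met* and *amhr2*, with at most 21 counts in any library, and *igf1r*. *met*, the Hgf receptor, had 0 to 6 counts in the Foxi2 libraries, and 21 and 14 counts in Sox3 morphants of stage 10.5 against 1 and 5 in controls (2.51 on the log2 scale, SE 0.76, edgeR adjusted p = 0.085 with the block). *amhr2*, the Amh receptor, had 1 to 18 counts in every library, and 5 and 3 counts in Sox3 morphants of stage 10.5 against 15 and 16 in controls (-1.93, SE 0.68, edgeR adjusted p = 0.149 with the block). Where *amh* was raised, in the Foxi2 morphants of stage 10.5, *amhr2* had 8 and 7 counts against 18 and 3 in controls, with overlap. *igf1r* was at 12.4 to 22.4 CPM in the libraries of the Foxi2 series and at 5.72 to 9.31 CPM in those of the Sox3 series, and it was not called in any comparison.

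**Figure D4:**
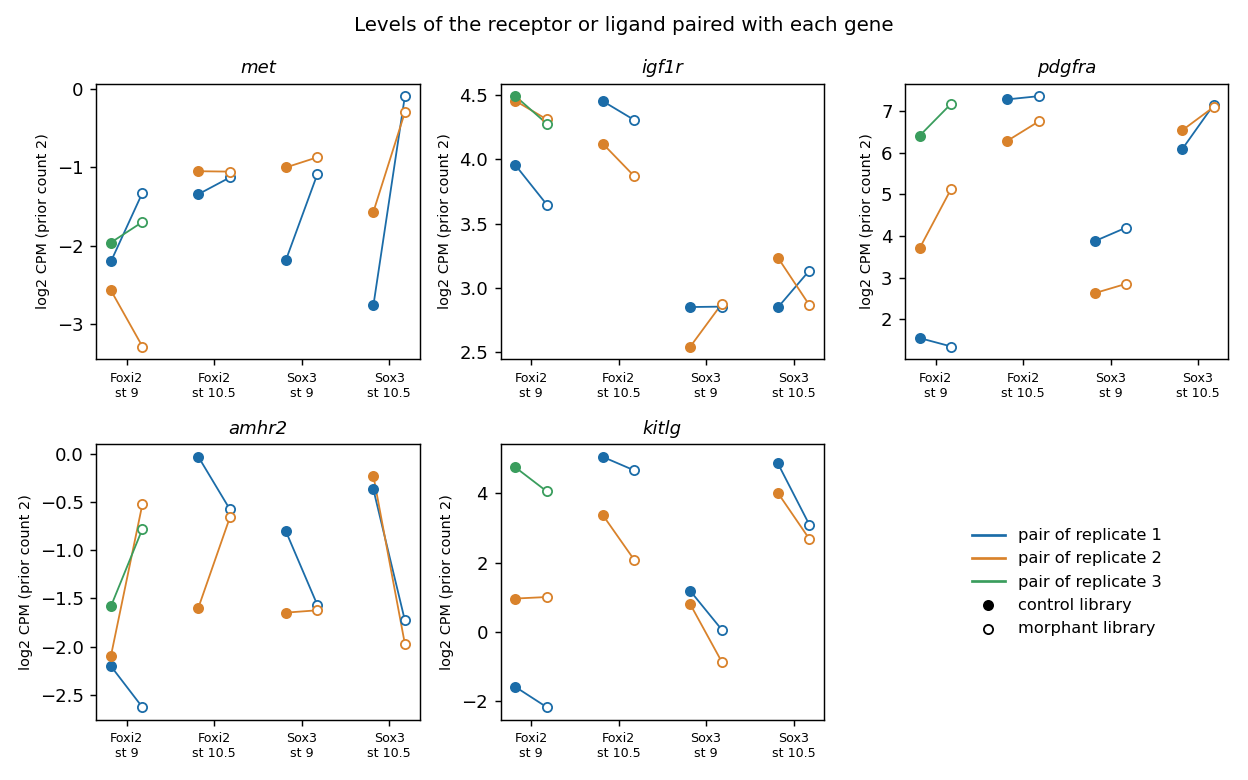
Level (log2 CPM, prior count 2) of the receptors *met*, *igf1r*, *pdgfra* and *amhr2* and of the ligand *kitlg* in every library, drawn as for the 5 genes. The *kitlg* lines fall in all 4 Sox3 pairs, and the *pdgfra* lines rise in both Sox3 pairs of stage 10.5, from 68.1 and 93.1 CPM to 143 and 137 CPM.

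With these 5 included, 61 of 67 listed partner genes were in the tables, namely ligands, receptors, binding proteins and activators of the 5 pathways and the shared cascade from Grb2 and Ras to the MAP kinases. The list was drawn up with earlier results known. With the block, 0 of 44 tested were called for Foxi2 at stage 9 and 0 of 45 at stage 10.5. For Sox3 at stage 9 it was 0 of 43. Over all genes the shares were 0.719, 1.47 and 1.32 percent, so 0 calls in lists of this size are no result about the partners. For Sox3 at stage 10.5, 1 of 43 rose and 1, *kitlg*, fell, against 1.87 and 1.48 percent of all genes, and the partners' median change was 0.18 beside 0.02 over all genes. Without the block 0 were called in each.

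The partner that rose was *csf1*, the ligand of the Kit relative Csf1r and a growth factor of macrophages. It was at 6.95 and 4.58 CPM in Sox3 morphants of stage 10.5 and 1.03 and 0.423 CPM in controls, without overlap (3.06 on the log2 scale, SE 0.36, edgeR adjusted p = 0.000215 with the block; 3.01, adjusted p = 0.408 without it). The Foxi2 morphants of that stage held 2.99 and 1.82 CPM of *csf1* and their controls 2.05 and 3.36 CPM, with overlap. The shared cascade had 0 of 18 tested genes called in every knockdown comparison with the block, against 0.719 to 3.35 percent of all genes. From stage 9 to stage 10.5 in the Sox3 controls, 4 of 42 partners tested rose, led by *kitlg*, *smad4.1* (3.17) and *pdgfra*, and 5 fell, led by *gab1* (-1.39), *sos1* (-1.21) and *igfbp5* (-1.20), against 5.46 and 8.67 percent of all genes.

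Markers of the germ layers were read in the same pairs. The study names *tp63*, *tfap2a*, *klf5*, *krt70* and *krt7* among targets of Foxi2 or Sox3, in part from these same morphants, so their falls are a description only. It also names *kit* among targets specific to Foxi2 and *igf3* as regulated by Sox3. The 8 ectoderm markers summed to less in the morphant in 7 of 9 pairs, with 2015 and 860 CPM against 2786 and 1111 CPM for Foxi2 at stage 10.5, and 1058 and 963 CPM against 1529 and 1189 CPM for Sox3. The other 2 pairs were replicates 1 and 2 of Foxi2 at stage 9, with 428 and 690 CPM in morphants against 384 and 622 CPM in controls. With the block, *klf5* and *tp63* were called lower for Foxi2 and *krt7*, *tfap2a* and *tp63* for Sox3 at stage 10.5. Over all genes, 81 of 13215 and 214 of 14427 were called lower there. At stage 9, *krt70* was called lower for Foxi2 and *krt7* and *tfap2a* for Sox3, beside 57 of 12802 and 140 of 13909 genes. Without the block none was called, for any germ layer. The 7 endoderm markers summed to more in the morphant in 7 of 9 pairs. The other 2 were the Sox3 pairs of stage 9, with 104 and 129 CPM in morphants against 131 and 147 CPM in controls. At stage 10.5 the endoderm markers held 1497 and 1230 CPM against 1312 and 823 CPM for Foxi2, and 1720 and 2102 CPM against 1287 and 1524 CPM for Sox3. In the knockdown comparisons 0 of them were called, where 0.719 to 3.35 percent of all genes were called with the block. The part of the germ layer markers in the lower *hgf*, *igf3*, *kit* and *pdgfa* was not tested.

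Amh is known as a gonad hormone, so markers of gonad and follicle were read in the same libraries. The 12 of 13 listed that were in the tables summed to 127 and 158 CPM in Foxi2 morphants of stage 10.5 and 115 and 150 CPM in controls, and at stage 9 to 280, 276 and 177 CPM against 273, 272 and 165 CPM. Nearly all of this came from the oocyte transcripts *gdf9*, *bmp15*, *figla* and *nobox*, which were detected in all 18 libraries. Of the other 8, *inha*, *cyp19a1*, *cyp11a1*, *cyp17a1* and *star* had at most 3 counts in any library, while *nr5a1* had 2 to 26 counts and exceeded 3 in 16 libraries, *dmrt1* had up to 9 and exceeded 3 in 8, and *foxl2* had up to 6 and exceeded 3 in 7. In the fits, 0 of the 5 list members tested at stage 9 or of the 4 tested at stage 10.5 were called for Foxi2. With the block the shares over all genes were 0.719 and 1.47 percent, so 0 calls among so few are no result about these markers.

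The 5 genes lie apart from each other in the genome (build UCB_Xtro_10.0, RefSeq annotation), with *hgf* on chromosome 3 from 79364100 to 79443724, *igf3* on chromosome 7 from 110949336 to 110959014, and *pdgfa* on chromosome 9 from 27858237 to 27899268. *kit* is on chromosome 1 from 40158930 to 40190076 and *amh* on the same chromosome from 102611974 to 102623336. All 5 are annotated as protein coding. The gene next to *amh*, *sf3a2*, a splicing factor gene, begins 350 bases beyond its end. It was at 145 and 169 CPM in Foxi2 morphants of stage 10.5 and 191 and 170 CPM in controls (-0.20, SE 0.10, edgeR adjusted p = 0.318 with the block). The morphant was below its control in replicate 1 and level with it in replicate 2, while *amh* was above its control in both. *jsrp1*, on the other side, was at 19.8 and 72.1 CPM in morphants and 19.7 and 71.9 CPM in controls.

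The neighbour of *igf3* on the higher-coordinate side, the long non-coding RNA LOC100494294, starts 8732 bases past its end. In Sox3 embryos of stage 10.5 it was at 13.8 and 8.55 CPM in morphants and 49.9 and 31.9 CPM in controls, without overlap, and it fell by 1.85 on the log2 scale with the block (SE 0.19, edgeR adjusted p = 5.94e-05; -1.84, adjusted p = 0.401 without it). At stage 9 the morphants held 15.6 and 8.42 CPM and the controls 30.8 and 20.04 CPM, a fall of 1.10 (SE 0.12, edgeR adjusted p = 0.000698 with the block; -1.07, adjusted p = 1 without it). In Foxi2 embryos of stage 10.5 it was at 22.0 and 23.8 CPM in morphants and 23.2 and 21.9 CPM in controls. The strand setting of the counting is not given in the sources used here, so reads of this RNA and of any transcript on the opposite strand cannot be told apart.

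The other *igf3* neighbour, *ascl2*, had at most 30 counts and was not called. The neighbours of *hgf*, *sema3c* and *cacna2d1*, and of *pdgfa*, *prkar1b*, were well measured and not called in any knockdown comparison, with or without the block. LOC100488597 next to *pdgfa* and LOC101730516 and LOC116408293 next to *kit* had at most 4 counts in any library.

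Across the 9 morphant-minus-control differences, the genes whose pattern was most like that of each of the 5 were found by Pearson's r among 13738 genes with a mean of at least 10 counts. For *amh* they were *crip3* (r = 0.97), *ccdc120* (0.97) and *cdip1* (0.96), for *hgf* *banp* (0.96), *acot8* (0.95) and *dnpep* (0.94), and for *igf3* *zbtb1* (0.96), *palm3* (0.96) and *mettl4* (0.95). For *kit* they were *lyplal1* (0.94), *cog4* (0.93) and *lrrc70* (0.92), and for *pdgfa* *mrpl34* (0.95), *eif5a* (0.94) and *slc25a4* (0.93). The r measures shape and not size, since *banp* differed by at most 0.14 on the log2 scale in any pair while *acot8* differed by -1.12 and -1.23 in the Sox3 pairs of stage 10.5 and -0.59 and -0.93 in the Foxi2 pairs. The 9 points share libraries and depth with the gene they are compared to, and with so many genes searched a high r is a description only.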

How the data were processed

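RNA from whole embryos was sequenced as 18 poly(A) libraries. The study's morpholino methods also describe dissecting animal caps ahead of RNA preparation, while its RNA-seq legend names embryos. The authors aligned the reads and deposited RSEM expected counts per gene, 1 table per factor and stage. The study's methods name RSEM with STAR and the V10.0 genome, while the submitters' processing notes name RSEM 1.2.12 and Bowtie2 2.2.7. The methods call the values normalized, but library totals differ, so they were taken as unscaled. All columns were used.

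Expected counts were rounded to whole numbers, scaled by TMM, filtered with filterByExpr and tested with edgeR 4.0.16 (glmQLFit and glmQLFTest, R 4.3.3) for each comparison on its own. Genes were called where the p adjusted by Benjamini-Hochberg was under 0.05 and the log2 change was 1 or more in either direction. The SE given with an edgeR change was derived from the test, as the size of the change divided by the square root of its F statistic. For log2 CPM, the prior count was 2 and the TMM factors came from all 18 libraries. A library at 3 counts or fewer counted as being at the limit of detection, and a fold against 0 counts was computed against 3 counts in that library. Counting intervals are exact (Clopper-Pearson) at 95 percent and cover counting error only.

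Morphants and controls share replicate numbers. Over genes, deviations from the group mean correlated within all 9 same-numbered pairs (r = 0.741 to 0.930, and 0.779 to 0.930 in the 3 Foxi2 pairs of stage 9), so the numbers were read as pairs, from the values. With 2 libraries a group the check is weak, since both deviations are equal in size. Replicates of a group differed far beyond sampling noise, so no library was a copy of another in its group. Libraries of different groups were not compared in this way.

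The 5 genes, the rule for naming genes, and the partner, neighbour and marker lists were chosen with earlier results of these data known. The rule names the 5 genes, the paired receptor or ligand, in each comparison and direction up to 3 called partners, the most changed ones first, the nearest gene on each side and the 3 genes most alike over the pairs. Of 28850 names, 26531 were found as symbols in the RefSeq table of the same build. Alternatives were RLE scaling, DESeq2 1.42.0, every gene with at least 1 count, the replicate block, a prior count of 0.5 and each library left out. Alternatives chosen after seeing the data were each series' controls alone, and the block without replicate 1 or replicate 3 of Foxi2 at stage 9.

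The fits were tested on simulated data with 200 genes changed 4-fold. In the knockdown comparisons, morphant and control of a replicate number were simulated from a shared mean, with little spread added. The pairing was thus built in, and the block was favoured by design. The fit without the block recovered 37.5, 0, 51 and 0 percent of the changed genes for Foxi2 stage 9, Foxi2 stage 10.5, Sox3 stage 9 and Sox3 stage 10.5. The block recovered 99 to 99.5 percent. In the stage comparison the fit without the block recovered 100 percent, while it called 0 genes in the data. These shares therefore do not tell how many changes the fits find in the data.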

Additional observations from a re-analysis of the deposited data

Results flagged for a closer look

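*igf1r* was flagged at stage 9 because the signs of its pair differences were opposite for the 2 factors. It was lower in all 3 Foxi2 morphants than in their controls (12.4, 19.8 and 19.3 CPM against 15.4, 21.9 and 22.4 CPM). In the Sox3 series replicate 1 was level, with 7.12 CPM in the morphant and 7.10 CPM in the control. Replicate 2 had 7.23 CPM in the morphant and 5.72 CPM in the control, so the higher Sox3 level rests on that pair. The mean pair difference of Foxi2 minus that of Sox3 was -0.39 on the log2 scale. This difference was not tested, and neither comparison called the gene.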

How the results depend on the processing

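Main calls were 0 genes in every comparison. For Foxi2 at stage 9, DESeq2 called 20 and the replicate block 92, or 199 without the pair of replicate 1 and 52 without that of replicate 3. For Foxi2 at stage 10.5 these were 30 with DESeq2 and 194 with the block. For Sox3 at stage 9 they were 68 and 183, with 1 when no filter on low counts was used, and for Sox3 at stage 10.5 188 and 484, with 32 unfiltered and 0 to 2 over the libraries left out in turn. The stage comparison of controls gave 1521 with DESeq2, 503 unfiltered, 0 to 2283 over the controls left out, and 1988 from the Sox3 controls alone. With factor and number as a block over both stages it gave 2110. Between stages, same-numbered controls deviated together in the Sox3 series (r = 0.731, from groups of 2, which fix its size for both numbers) and not in the Foxi2 series (r = -0.421 and 0.0429), so the numbers were not read as pairs across stages. The cause of these shifts was not tested.

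Some directions of uncalled values turned when a library was left out. On the log2 scale, for Foxi2 at stage 9 *kitlg* ran from -3.27 to 2.59 and *pdgfra* from -0.87 to 2.96. For Foxi2 at stage 10.5 *igf1r* ran from -0.44 to 0.023, *kitlg* from -2.41 to 0.54 and *pdgfra* from -0.19 to 0.82. For Sox3, *pdgfra* at stage 9 ran from -0.53 to 1.08 and *igf1r* at stage 10.5 from -0.20 to 0.17. Mean pair differences with a pair left out ran from -1.64 to 0.14 for *igf3* (Foxi2, stage 9), and for Sox3 from -0.16 to 0.027 for *igf3*, -0.72 to 0.45 for *kit* and -1.55 to 1.06 for *amh* at stage 9, and -1.07 to 0.048 for *pdgfa* and -0.40 to 0.12 for *amh* at stage 10.5. RLE scaling changed no direction. With the replicate block no library can be left out where a group has 2, since 1 pair leaves no residual degrees of freedom. Counts of 3 or fewer in many libraries limit *hgf* and *amh*, and low counts in most stage 9 libraries limit *igf3*. The mean pair differences of these genes depend on the prior count.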
